A study of Mus musculus with 17 samples.

Results

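The expression of 10 genes that restrain signalling from the T cell receptor, none of them a ubiquitin ligase, was followed through 6 groups of mouse CD8+ T cells, of 53679 genes counted in all. The rule that lists them goes by function and uses no measured value, although the list was drawn up with earlier results of these data known: 4 tyrosine phosphatase genes (Ptpn2, Ptpn6, Ptpn7 and Ptpn22), 2 diacylglycerol kinase genes (Dgka and Dgkz), 3 adaptor genes (Sla, Sla2 and Ubash3a) and the surface receptor gene Cd5. All 10 were found in the count files by Ensembl identifier, and all 10 were among the 16246 genes tested. The cells came from C57BL/6 mice, either with intact Cblb (wild type, WT) or lacking it (knockout, KO). Cblb encodes the ubiquitin ligase Cbl-b. The cells were unstimulated, or stimulated for 12 h with anti-CD3, which engages the receptor complex, or with anti-CD3 and anti-CD28, which adds costimulation. The labels give no hours for the unstimulated cells, whose count columns are marked D0 where the others are marked 12h, so stimulation and time in culture cannot be told apart. Each group held 3 libraries except WT cells given both antibodies, which held 2 (replicates 2 and 3). The labels give the cells as almost pure CD8+ but do not give the age of the mice, the part of Cblb removed or the cells in which it was removed, and they do not say that replicates came from separate mice. The p-values therefore rest on the spread among these libraries alone, and that spread may be technical.

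Receptor engagement sets off the kinases Lck and Zap70, which phosphorylate the receptor chains and the scaffold Lat, and phospholipase C then makes the second messenger diacylglycerol. Tyrosine phosphatases remove those phosphates, diacylglycerol kinases convert diacylglycerol to phosphatidic acid, and the adaptors and CD5 act on the receptor chains or bring in other inhibitors. Cbl-b acts on the same early steps as a ubiquitin ligase, so the question put to these data was whether transcripts of the other brakes were higher in cells without Cblb, in each state of stimulation.

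The libraries held 16635826 to 38269033 counts, apart from KO unstimulated replicate 2 with 160059285, and none of the 10 genes had under 698 counts in a library. Cblb itself, the check of the labels, ranged over 139.5 to 190.1 CPM (counts scaled by library size after TMM normalization) in WT libraries and 63.9 to 95.9 CPM in KO libraries, so that no KO library overlapped a WT library. The summed level of 5 defining CD8 T cell genes was 2698 to 3189 CPM in unstimulated and 1532 to 1673 CPM in stimulated libraries. The 4 B cell markers summed to 17.1 to 26.7 CPM in unstimulated and 5.10 to 9.40 CPM in stimulated libraries and the lists for CD4 and regulatory T, myeloid, dendritic, NK and red cells summed to at most 4.02 CPM in any library. Libraries also departed from each other according to how GC-rich a gene is. This tilt was taken as the median log2 deviation of GC-rich genes (56% or more) less that of AT-rich genes (40% GC or less). It reached 1.17 in replicate 2 of the unstimulated KO cells and -1.16 in replicate 3 of the KO cells given both antibodies, and the remaining libraries had -0.71 to 0.55. Unstimulated KO libraries had 0.19 to 1.17 and WT libraries -0.71 to -0.29. Under anti-CD3 it was 0.085 to 0.23 in KO and -0.42 to -0.13 in WT libraries. With both antibodies KO libraries had -1.16 to 0.33 and WT libraries 0.51 to 0.55. The tilt thus differed between the genotypes in each state, so correcting for it may also remove differences of genotype. Tilt and genotype cannot be told apart in these libraries. The 10 genes span 39.7% (Ptpn2) to 59.6% GC (Dgkz), against a median of 48.7% over the tested genes. Their differences are given without a correction for this GC trend. Values with the correction are added where the call depends on it, and in some cases where only the sign or size does.

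On GRCm38 the gene Dgka spans chr10:128720134-128744855, Dgkz chr2:91932824-91975864, Ubash3a chr17:31207873-31246892 and Sla2 chr2:156872457-156887192. Per kilobase of exon, Dgka was the most abundant of the 10 genes in unstimulated WT cells, at 149.9 ± 1.64 CPM per kb (mean ± SD, n = 3). Ptpn6, which encodes the phosphatase SHP-1, followed with 58.5 ± 6.46, and Ptpn22, the phosphatase that acts on Lck and Zap70, with 42.7 ± 1.96. Sla and Sla2, the Src-like adaptors that promote loss of the receptor chains, lay at 30.6 ± 0.173 and 25.8 ± 1.78 CPM per kb. Ptpn2, a phosphatase of Lck and of JAK and STAT proteins, Dgkz and Cd5 lay at 23.3 ± 0.682, 22.1 ± 3.72 and 18.7 ± 2.52. Neither Ptpn2 and Dgkz nor Dgkz and Cd5 differed beyond the larger SD of each pair. Ptpn7, a phosphatase of the MAP kinases ERK and p38, and Ubash3a, which encodes the adaptor STS-2, were lowest at 11.6 ± 1.33 and 7.31 ± 0.796 CPM per kb. Over the 17 libraries the highest level of a gene in CPM was 1.44 times its lowest for Ptpn22 and Sla and 3.97 times for Dgkz, with the other 7 genes in between.

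**Figure D1:**
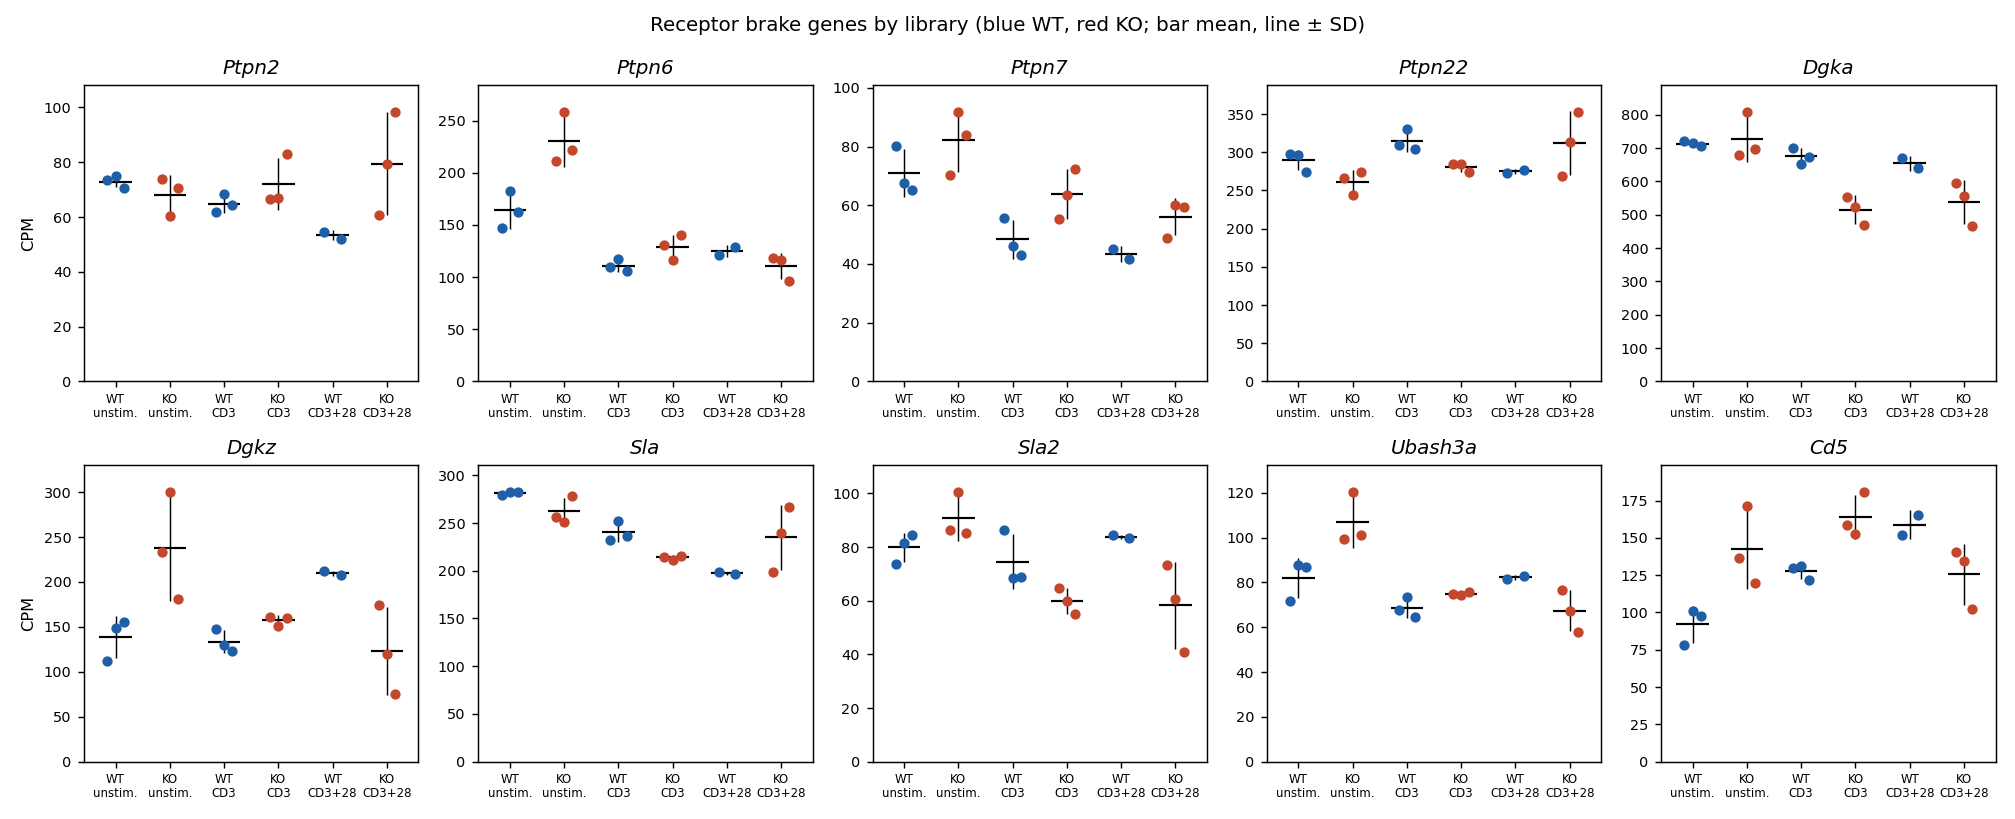
Levels of the 10 brake genes by library. Each panel is 1 gene, with CPM on the vertical axis from 0 and the 6 groups along the horizontal axis. Points are libraries, blue for WT and red for KO, horizontal bars are group means and vertical lines are ± SD. Ptpn6 and Ptpn7 are lower in stimulated than in unstimulated cells of both genotypes, while the Dgkz points of KO cells spread from 75.5 to 300.0 CPM.

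Promoter windows from RefSeq (GRCm38.p6, 250 bases before to 50 bases after a start site, the one nearest the annotated 5′ end of the gene) were taken for 8 of the 10 genes. Ptpn2 was left out of the search, and no window was found for Sla. The windows of 4 genes are printed, chosen on the results below. Stimulation of WT cells moved Ptpn6 and Ptpn7 one way and Cd5 the other. Dgka was the gene called lower in KO cells given anti-CD3. Capitals mark matches, on either strand, to 8 short motifs that were searched.
Ptpn6, chr6:124738660-124738959, minus strand: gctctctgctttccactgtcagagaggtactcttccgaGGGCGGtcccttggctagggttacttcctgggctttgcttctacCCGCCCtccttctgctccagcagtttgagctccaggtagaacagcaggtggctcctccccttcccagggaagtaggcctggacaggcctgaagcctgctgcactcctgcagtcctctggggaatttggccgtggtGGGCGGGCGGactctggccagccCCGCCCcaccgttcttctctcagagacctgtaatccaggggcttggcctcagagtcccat
Ptpn7, chr1:135132450-135132749, plus strand: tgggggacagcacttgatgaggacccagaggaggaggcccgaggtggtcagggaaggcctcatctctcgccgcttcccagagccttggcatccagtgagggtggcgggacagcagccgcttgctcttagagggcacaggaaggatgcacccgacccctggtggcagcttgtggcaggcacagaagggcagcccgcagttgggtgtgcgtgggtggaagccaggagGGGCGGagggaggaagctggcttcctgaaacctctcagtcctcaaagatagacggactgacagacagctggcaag
Dgka, chr10:128745035-128745334, minus strand: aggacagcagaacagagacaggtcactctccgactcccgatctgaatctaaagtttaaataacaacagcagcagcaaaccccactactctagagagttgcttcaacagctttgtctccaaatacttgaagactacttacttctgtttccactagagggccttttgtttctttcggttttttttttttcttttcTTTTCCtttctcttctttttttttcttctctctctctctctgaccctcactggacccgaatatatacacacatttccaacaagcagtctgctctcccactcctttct
Cd5, chr19:10738925-10739224, minus strand: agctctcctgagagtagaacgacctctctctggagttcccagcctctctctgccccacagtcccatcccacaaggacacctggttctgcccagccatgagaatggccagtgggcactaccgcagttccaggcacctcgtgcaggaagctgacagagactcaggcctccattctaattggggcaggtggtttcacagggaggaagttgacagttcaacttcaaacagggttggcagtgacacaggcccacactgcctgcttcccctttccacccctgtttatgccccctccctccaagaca

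The motifs were AP-1 (TGANTCA), NFAT (GGAAAA), EGR (by name), FOXO (GTAAACA), RUNX (TGTGGT), ETS (CCGGAAG), the GC box (GGGCGG) and NF-kappaB (by name). The Ptpn6 window held 5 GC boxes, 2 of them overlapping, and the Ptpn7 window 1. The Dgka window held 1 NFAT match, 57 bases before the start site and on the opposite strand, and the Cd5 window held none of the 8. Of 32851 promoter windows of the same length, 35.7% held a GC box and 23.4% an NFAT match, so these matches are common. The GC content of the printed windows was 61.7% (Ptpn6), 63.3% (Ptpn7), 41.3% (Dgka) and 57.3% (Cd5), against a median of 52.7%. A match to such letters is a description and not a measured binding site.

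In unstimulated cells, 4 of the 10 brake genes were higher in KO than in WT cells and 0 were lower. Over all genes tested 15.3% were higher and 10.1% lower. The 4 were Dgkz, Cd5, Ptpn6 and Ubash3a. The median log2 fold change of the 10 genes was 0.20, against -0.011 over all genes. After correction for the GC trend 2 of the 10 were higher, Ubash3a and Ptpn2, and 0 lower, where 5.32% of all genes were higher and 1.82% lower. The median of the 10 genes was then 0.15, against 0.040 over all genes.

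Among the phosphatases, Ptpn6 had 147, 183 and 162 CPM in unstimulated WT libraries and 211, 258 and 222 CPM in KO libraries (replicates 1 to 3). Every KO library lay above every WT library, and the log2 fold change was 0.49 ± 0.11 (± SE, adjusted p = 0.00859). Corrected for GC, the value was 0.15 ± 0.076 (adjusted p = 0.257). Ptpn2 had 73.3, 74.8 and 70.6 CPM in WT and 73.8, 60.2 and 70.5 CPM in KO libraries. The lowest of these 6 values came from KO replicate 2, the library of highest GC tilt, and Ptpn2 is the most AT-rich of the 10 genes. Its log2 fold change was -0.10 ± 0.14 without the correction (adjusted p = 0.61) and 0.34 ± 0.091 with it (adjusted p = 0.0304), so the call and the sign depended on that step. Ptpn7 and Ptpn22 had 0.21 ± 0.13 and -0.15 ± 0.090 and were not called in either fit. Corrected, Ptpn22 went the other way, with means of 287 GC-adjusted CPM in KO and 269 in WT cells.

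Of the kinase and adaptor genes, Dgkz and Ubash3a were called. Dgkz, the zeta isoform of the kinase, had 112, 148 and 155 CPM in WT and 233, 300.0 and 181 CPM in KO libraries, with the highest value again in KO replicate 2. The groups did not overlap and the log2 fold change was 0.78 ± 0.23 (adjusted p = 0.0259), but with the GC correction it was 0.064 ± 0.064 (adjusted p = 0.615). Dgka, the alpha isoform, had 721, 714 and 705 CPM in WT and 679, 809 and 697 CPM in KO libraries, which overlap. Ubash3a had 71.9, 87.7 and 87.0 CPM in WT and 99.4, 120.3 and 101 CPM in KO libraries. Its difference was 0.38 ± 0.11 without (adjusted p = 0.0186) and 0.43 ± 0.10 with the correction (adjusted p = 0.0176), the only one of the 10 genes called in both fits. Sla and Sla2 had -0.10 ± 0.090 and 0.19 ± 0.15, and with the correction 0.18 ± 0.061 and 0.17 ± 0.15, and were not called.

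Cd5, a receptor whose surface level is known to follow the strength of receptor signals in thymocytes and naive T cells, had 78.0, 101 and 97.3 CPM in WT and 136, 171 and 119 CPM in KO unstimulated libraries. The KO libraries were all higher, and the log2 fold change was 0.63 ± 0.14 (adjusted p = 0.00841). After the GC correction the levels were 99.0, 111 and 107 in WT and 113, 121 and 112 in KO libraries, which still do not overlap, and the difference was 0.13 ± 0.076 (adjusted p = 0.334). None of the calls on Dgkz, Cd5, Ptpn6 and Ubash3a held without KO unstimulated replicate 2 or without WT unstimulated replicate 1. Adjusted p was then 0.055 to 0.154, and 0.108 to 0.119 for Ubash3a.

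**Figure D2:**
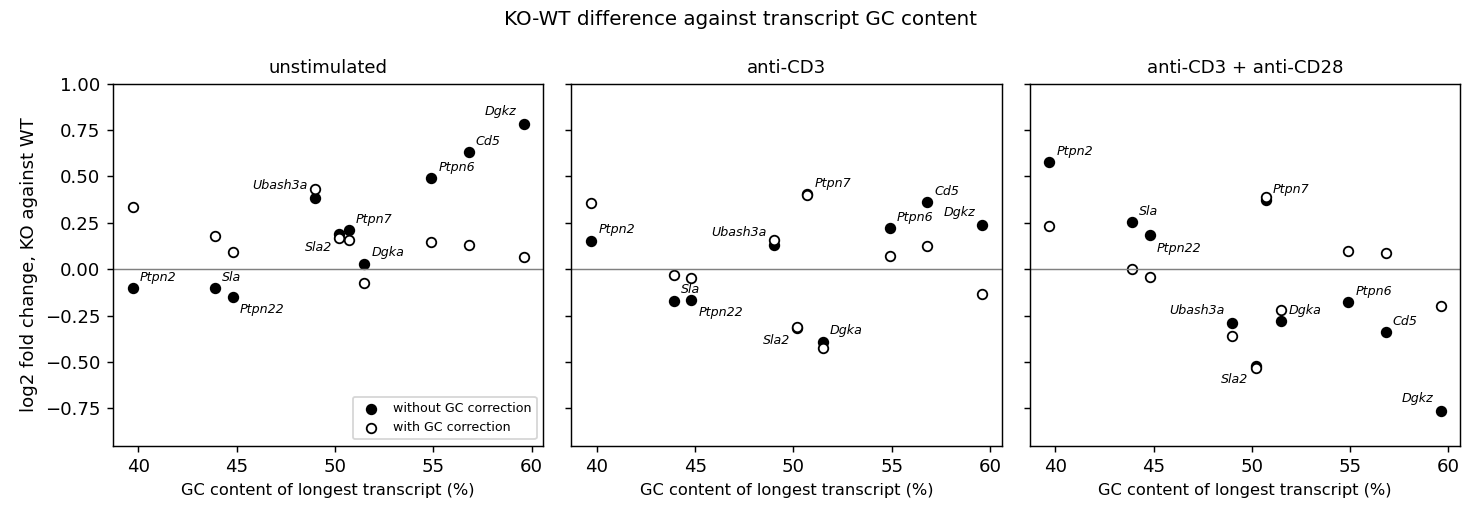
KO minus WT differences of the 10 brake genes against the GC content of their longest transcript, in the 3 states. The vertical axis is the log2 fold change, the horizontal axis GC content in percent, filled points are values without and open points with the GC correction. Filled points rise with GC content in unstimulated cells and fall with it in cells given both antibodies, where r is 0.90 and -0.80, and for open points r is -0.44 and -0.18.

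The size of these differences went with GC content. Across the 10 genes, Pearson r between the KO minus WT log2 fold change and transcript GC content was 0.90 in unstimulated cells and -0.44 after correction. It was 0.36 and -0.27 with anti-CD3, and -0.80 and -0.18 with both antibodies (n = 10 genes, which share their libraries). Because the correction is fitted on the same transcript GC content, a smaller r after it is largely built in. Dgkz, the most GC-rich of the 10, had its highest level in the library of highest tilt in 5 of the 6 groups, and Ptpn22, at 44.8% GC, its lowest in 5 of the 6. The order was not the same for every gene. Sla2, at 50.2% GC, was also highest in that library in 5 groups, Cd5, at 56.8% GC, in 3, and Ptpn2, the most AT-rich, was lowest there in 4 groups and highest in 2. The part of the GC trend in the uncorrected values was not tested beyond the correction and the fits without the 2 libraries of most extreme tilt.

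With anti-CD3, 1 of the 10 brake genes was higher in KO cells (Ptpn7) and 1 lower (Dgka), against 10.5% and 4.8% of all genes. The median of the 10 was 0.14, against 0.037 over all genes. With the GC correction 2 were higher (Ptpn2 and Ptpn7) and 1 lower (Dgka), against 16% and 5.45% of all genes, and the medians were 0.019 and 0.050. In the same comparison the activation genes Ifng and Il2ra were higher in KO cells, with log2 fold changes of 2.31 ± 0.30 and 1.50 ± 0.20. The activation gene Nr4a1 had 103 ± 7.57 CPM in KO and 55.4 ± 6.75 in WT cells (mean ± SD), and Cd69 356 ± 54.6 and 272 ± 29.6.

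Dgka had 701, 651 and 673 CPM in WT and 554, 522 and 469 CPM in KO cells given anti-CD3. Every KO library lay below every WT library, and the difference was -0.39 ± 0.097 on the log2 scale (adjusted p = 0.0122), or -0.43 ± 0.073 once corrected for GC (adjusted p = 0.000308). Only leaving out KO anti-CD3 replicate 3 ended this call among the alternatives tried, at -0.33 (adjusted p = 0.088). Dgka shares 105 exon bases with Pmel on the opposite strand, whose total over the 17 libraries was 2664 counts. Dgkz had 148, 130.2 and 123 CPM in WT and 161, 151 and 160.0 CPM in KO libraries, at 0.24 ± 0.23 without and -0.13 ± 0.064 with the correction (adjusted p = 0.535 and 0.163). Summed per kilobase, the 2 kinase transcripts came to 163 ± 6.91 CPM per kb in WT and 133 ± 9.01 in KO cells given anti-CD3, and to 172 ± 2.35 and 191 ± 23.3 in unstimulated cells. The ranges of the sums did not overlap between genotypes in either state, but the sums were taken without the GC correction. With it, unstimulated Dgka had 708 to 742 GC-adjusted CPM in WT and 653 to 717 in KO libraries. Unstimulated Dgkz then had 163 to 178 in WT and 169 to 190 in KO libraries, so the genotypes overlapped for each gene. With anti-CD3, every corrected KO value of each gene lay below every WT value. The ratio of Dgka to Dgkz per kilobase, also taken without the correction, was 6.26 to 7.20 in WT and 3.86 to 4.55 in KO cells given anti-CD3.

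Of the phosphatases, Ptpn7 had 55.6, 46.3 and 43.2 CPM in WT and 55.4, 63.5 and 72.4 CPM in KO cells given anti-CD3. The lowest KO library lay within the WT range, and the log2 fold change was 0.40 ± 0.13 (adjusted p = 0.0465), or 0.40 ± 0.12 with the correction (adjusted p = 0.0237). This call was lost in 16 of the 27 alternatives, 12 of them fits without 1 library, of which KO anti-CD3 replicate 3 gave the highest adjusted p (0.249). Ptpn2 had 62.0, 68.5 and 64.3 CPM in WT and 66.5, 66.9 and 83.1 CPM in KO libraries, at 0.15 ± 0.14 without and 0.36 ± 0.091 with the correction (adjusted p = 0.481 and 0.00713). Ptpn6 and Ptpn22 had 0.22 ± 0.11 and -0.16 ± 0.090 and were not called in either fit.

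Of the adaptors and CD5 in cells given anti-CD3, Cd5 had 129.7, 131 and 122 CPM in WT and 158, 153 and 181 CPM in KO libraries. The KO libraries were all higher, but the difference of 0.36 ± 0.14 was not called (adjusted p = 0.0827), nor was 0.13 ± 0.076 with the correction. Sla2 had 86.5, 68.3 and 68.9 CPM in WT and 64.9, 59.8 and 55.0 CPM in KO libraries, all lower, at -0.32 ± 0.15 and, corrected, -0.31 ± 0.15 (adjusted p = 0.181 and 0.176). Sla and Ubash3a had -0.17 ± 0.090 and 0.13 ± 0.11, also not called.

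With both antibodies, 1 of the 10 brake genes was higher in KO cells (Ptpn2) and 1 lower (Sla2), against 9.84% and 6.3% of all genes. The median of the 10 was -0.23, against 0.00024 over all genes. With the GC correction 0 were higher and 2 lower (Sla2 and Ubash3a), against 9.43% and 7.69%, and the medians were -0.018 and -0.047. Ifng and Il2ra were higher in KO cells by 2.87 ± 0.37 and 1.63 ± 0.24. Nr4a1 had 81.8 ± 12.5 CPM in KO and 83.1 ± 5.56 in WT cells (mean ± SD), and Cd69 381 ± 147 and 208 ± 16.9.

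Ptpn2 had 54.6 and 52.0 CPM in the 2 WT libraries and 60.7, 79.4 and 98.4 CPM in KO libraries given both antibodies. The KO libraries were all higher, at 0.58 ± 0.15 (adjusted p = 0.0218), and the highest value was in KO replicate 3, the library of lowest GC tilt. With the correction the difference was 0.23 ± 0.10 (adjusted p = 0.134). Leaving out either WT library, or KO replicate 2 or 3, of the cells given both antibodies also ended the call (adjusted p 0.056 to 0.161). Ptpn7 had 45.2 and 41.6 CPM in WT and 48.8, 60.1 and 59.5 CPM in KO libraries, at 0.37 ± 0.15 and, corrected, 0.39 ± 0.14 (adjusted p = 0.0937 and 0.0622). Ptpn6 and Ptpn22 had -0.18 ± 0.12 and 0.18 ± 0.10, not called in either fit. Their corrected levels went the other way. The means were 121 GC-adjusted CPM in KO and 113 in WT cells for Ptpn6, and 293 and 301 for Ptpn22.

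Sla2, in cells given both antibodies, had 84.4 and 83.3 CPM in WT and 73.2, 60.8 and 40.9 CPM in KO libraries. All KO libraries were lower, at -0.52 ± 0.17 (adjusted p = 0.0466) and, corrected, -0.53 ± 0.17 (adjusted p = 0.0436). Without 1 of 13 libraries in turn the call ended (adjusted p 0.052 to 0.199, highest without WT both-antibody replicate 2). The value itself was -0.32 without KO both-antibody replicate 3 and -0.33 without the 2 libraries of extreme tilt. Sla2 shares 731 exon bases with Rab5if on the opposite strand, and Rab5if was higher in the same KO cells (0.64 ± 0.17, adjusted p = 0.0197), so reads over those bases may have been counted for either gene if strand was not used. Ubash3a had 81.6 and 83.0 CPM in WT and 76.6, 67.5 and 58.1 CPM in KO libraries, at -0.29 ± 0.12 without and -0.36 ± 0.12 with the correction (adjusted p = 0.104 and 0.0397). Sla had 0.25 ± 0.10 and, corrected, 0.0033 ± 0.068, and was not called.

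Dgkz showed the widest spread in this comparison, with 212 and 207 CPM in WT and 174, 120.4 and 75.5 CPM in KO cells given both antibodies. The lowest was KO replicate 3, and the log2 fold change was -0.77 ± 0.26 (adjusted p = 0.0547). The correction brought the KO levels to 144, 139.8 and 128 and the WT levels to 159 and 155, a difference of -0.20 ± 0.072 (adjusted p = 0.0648). Dgka had 669.8 and 639 CPM in WT and 596, 555 and 467 CPM in KO libraries, all lower, at -0.28 ± 0.11 (adjusted p = 0.0817). Cd5 had 152 and 166 CPM in WT and 140.2, 134 and 102 CPM in KO libraries, at -0.34 ± 0.15 and, corrected, 0.085 ± 0.086, and was not called in either fit.

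**Figure D3:**
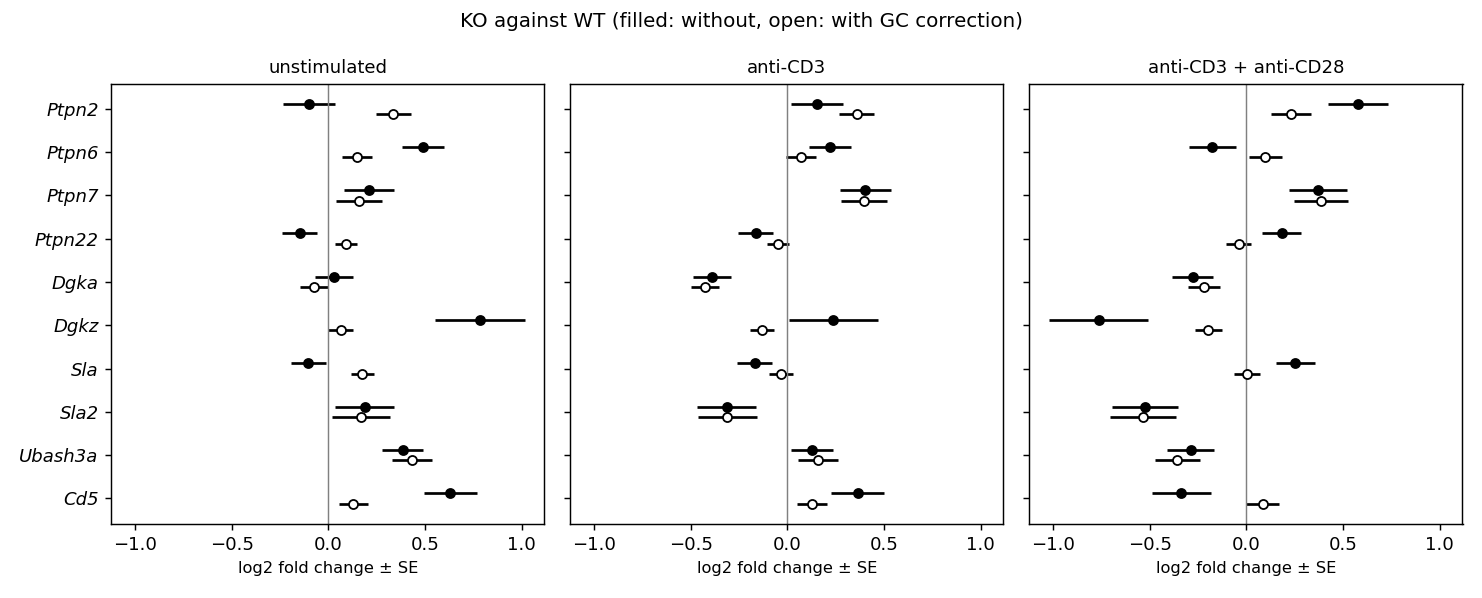
KO against WT differences of the 10 brake genes in the 3 states. The horizontal axis is the log2 fold change with its SE, filled points without and open points with the GC correction. Ubash3a lies above 0 in unstimulated cells in both fits, Dgka below 0 with anti-CD3 and Sla2 below 0 with both antibodies.

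The response to stimulation was compared next, within each genotype. In WT cells anti-CD3 gave 1 brake gene higher (Cd5) and 2 lower (Ptpn6 and Ptpn7), against 11.3% and 13.1% of all genes, with a median of -0.13 over the 10 and -0.0037 over all genes. Both antibodies gave 1 higher (Cd5) and 4 lower (Ptpn2, Ptpn6, Ptpn7 and Sla), against 17.8% and 16.3%. In KO cells anti-CD3 gave 0 higher and 6 lower, against 19.6% and 17.3% of all genes, with a median of -0.43 over the 10 and 0.024 over all genes. Both antibodies gave 1 higher (Ptpn22) and 6 lower, against 23% and 22.5%, with a median of -0.49 over the 10 and 0.0063 over all genes. The 6 lower genes with anti-CD3 were Ptpn6, Ptpn7, Dgka, Sla, Sla2 and Ubash3a, and with both antibodies Dgkz was called and Sla was not. With the GC correction the counts were 2 higher and 3 lower in WT cells given anti-CD3 (all genes 16.2% and 17.2%) and 1 and 3 with both antibodies (17.9% and 14.2%). In KO cells they were 1 and 6 with anti-CD3 (22.6% and 20.7%) and 1 and 8 with both antibodies (20.2% and 23.3%). The 2 stimulated groups of a genotype share its unstimulated libraries.

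Ptpn6 fell in all 4 of these comparisons. Its values in WT libraries were 147, 183 and 162 CPM unstimulated, 109, 117 and 105 CPM with anti-CD3 and 121 and 129 CPM with both antibodies. KO libraries had 211, 258 and 222 CPM unstimulated, 130.3, 117 and 139.9 CPM with anti-CD3 and 118, 117 and 96.6 CPM with both antibodies, and no stimulated library reached an unstimulated one of its genotype. The log2 fold changes were -0.57 ± 0.11 and -0.39 ± 0.12 in WT and -0.84 ± 0.11 and -1.06 ± 0.11 in KO cells (adjusted p 1.09e-06 to 0.0205). Once corrected for GC, they lay closer together, at -0.59 ± 0.077 and -0.66 ± 0.087 in WT and -0.67 ± 0.076 and -0.71 ± 0.077 in KO cells, all called. The WT both-antibody fall was no longer called once WT unstimulated replicate 2, or either WT library given both antibodies, was left out (adjusted p 0.0753 to 0.144). SHP-1 is also abundant in B and myeloid cells, and the B cell marker sum fell alongside it between unstimulated and stimulated libraries, from at least 17.1 to at most 9.40 CPM, and its part in the fall was not tested. In bulk RNA, fewer cells of a type and less RNA per cell cannot be told apart.

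Ptpn7 also fell in all 4 comparisons. Its levels were 71.0 ± 8.10 CPM in unstimulated WT cells (mean ± SD), 48.4 ± 6.50 with anti-CD3 and 43.4 ± 2.59 with both antibodies, and 82.1 ± 10.8, 63.8 ± 8.52 and 56.1 ± 6.36 CPM in KO cells. The log2 fold changes were -0.56 ± 0.13 and -0.71 ± 0.15 in WT and -0.36 ± 0.13 and -0.55 ± 0.13 in KO cells (adjusted p 0.00189 to 0.0364). The KO anti-CD3 libraries overlapped the unstimulated ones by 1 value, and that call ended with the GC correction (-0.30 ± 0.12, adjusted p = 0.052) and without KO anti-CD3 replicate 1 or 2 or KO unstimulated replicate 2 or 3 (adjusted p 0.0504 to 0.164). Ptpn2 fell in WT cells given both antibodies (-0.45 ± 0.15, adjusted p = 0.0313) but with the correction had -0.15 ± 0.10 (adjusted p = 0.28). That call also ended when either WT library given both antibodies, or WT unstimulated replicate 1 or 2, was left out (adjusted p 0.0576 to 0.168). In KO cells given both antibodies Ptpn2 had 0.22 ± 0.14, not called, and with the correction it was lower, at -0.26 ± 0.091 (adjusted p = 0.0266). Ptpn22 had -0.075 to 0.26 over the 4 comparisons, and its 1 call, in KO cells given both antibodies (adjusted p = 0.0286), had 0.030 ± 0.058 with the correction (adjusted p = 0.707). It also ended without KO both-antibody replicate 2 or 3, WT both-antibody replicate 2 or KO unstimulated replicate 1 or 2 (adjusted p 0.0608 to 0.157), and was 0.16 without KO both-antibody replicate 3. In WT cells given anti-CD3 the corrected value of Ptpn22, 0.15 ± 0.057, was called (adjusted p = 0.0474).

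Of the 2 kinase genes, Dgka was lower with both stimuli in KO cells, and Dgkz was called with both antibodies. Dgka was lower in KO cells after anti-CD3 (-0.50 ± 0.097, adjusted p = 0.000636) and after both antibodies (-0.43 ± 0.097, adjusted p = 0.00172), while in WT cells it had -0.080 ± 0.097 and -0.13 ± 0.11, neither called. With the correction the KO values were -0.41 ± 0.073 and -0.29 ± 0.073, both called. Dgkz had -0.60 ± 0.23 and -0.95 ± 0.23 in KO cells (adjusted p = 0.0562 and 0.00435) and -0.052 ± 0.23 and 0.60 ± 0.26 in WT cells, not called. With the correction the 4 values of Dgkz narrowed to -0.32 ± 0.064 and -0.38 ± 0.065 in KO cells (adjusted p = 0.000336 and 6.22e-05) and -0.13 ± 0.064 and -0.12 ± 0.072 in WT cells (adjusted p = 0.138 and 0.205). Summed per kilobase, the 2 kinase transcripts were 172 ± 2.35 CPM per kb in unstimulated WT cells, 163 ± 6.91 with anti-CD3 and 171 ± 5.12 with both antibodies, and 191 ± 23.3, 133 ± 9.01 and 133 ± 21.5 in KO cells. Every stimulated KO library lay below every unstimulated KO library in this sum, which was taken without the GC correction.

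Among the adaptors, Ubash3a fell in KO cells from 99.4, 120.3 and 101 CPM to 74.7, 74.2 and 75.6 CPM after anti-CD3 and 76.6, 67.5 and 58.1 CPM after both antibodies. The changes were -0.52 ± 0.11 and -0.67 ± 0.11 (adjusted p = 0.0011 and 0.000111), while WT cells had -0.26 ± 0.11 and 0.0029 ± 0.12 (adjusted p = 0.0874 and 0.989). The correction left these values close to where they were, at -0.52 ± 0.10 and -0.70 ± 0.10 in KO cells. Sla2 fell in KO cells, with changes of -0.60 ± 0.15 and -0.64 ± 0.15 (adjusted p = 0.00525 and 0.00305) and had -0.10 ± 0.15 and 0.071 ± 0.17 in WT cells. Rab5if, which shares exon bases with Sla2, was higher in KO cells given both antibodies than in unstimulated KO cells (0.52 ± 0.15, adjusted p = 0.0085). Sla fell in KO cells given anti-CD3 (-0.29 ± 0.091, adjusted p = 0.0173, or 0.0534 without KO anti-CD3 replicate 2) and in WT cells given both antibodies (-0.51 ± 0.10, adjusted p = 0.00129). With the correction Sla was lower in all 4 comparisons, at -0.21, -0.26, -0.41 and -0.44 (adjusted p 6.46e-06 to 0.0118).

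Cd5 was the one brake gene that rose in WT cells without the GC correction, from 78.0, 101 and 97.3 CPM to 129.7, 131 and 122 with anti-CD3 and 152 and 166 with both antibodies. The stimulated libraries were all above the unstimulated ones, with changes of 0.47 ± 0.14 and 0.78 ± 0.15 (adjusted p = 0.0187 and 0.000995). The anti-CD3 rise lost its call without WT anti-CD3 replicate 1 or 2 or WT unstimulated replicate 1 (adjusted p 0.0549 to 0.101). In KO cells, where the unstimulated libraries were already at 119 to 171 CPM, Cd5 had 0.20 ± 0.14 and -0.18 ± 0.14, neither called. In the GC-corrected fit it rose in all 4 comparisons, by 0.43 ± 0.077 and 0.34 ± 0.085 in WT and 0.43 ± 0.076 and 0.29 ± 0.077 in KO cells (adjusted p 0.000104 to 0.00427).

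**Figure D4:**
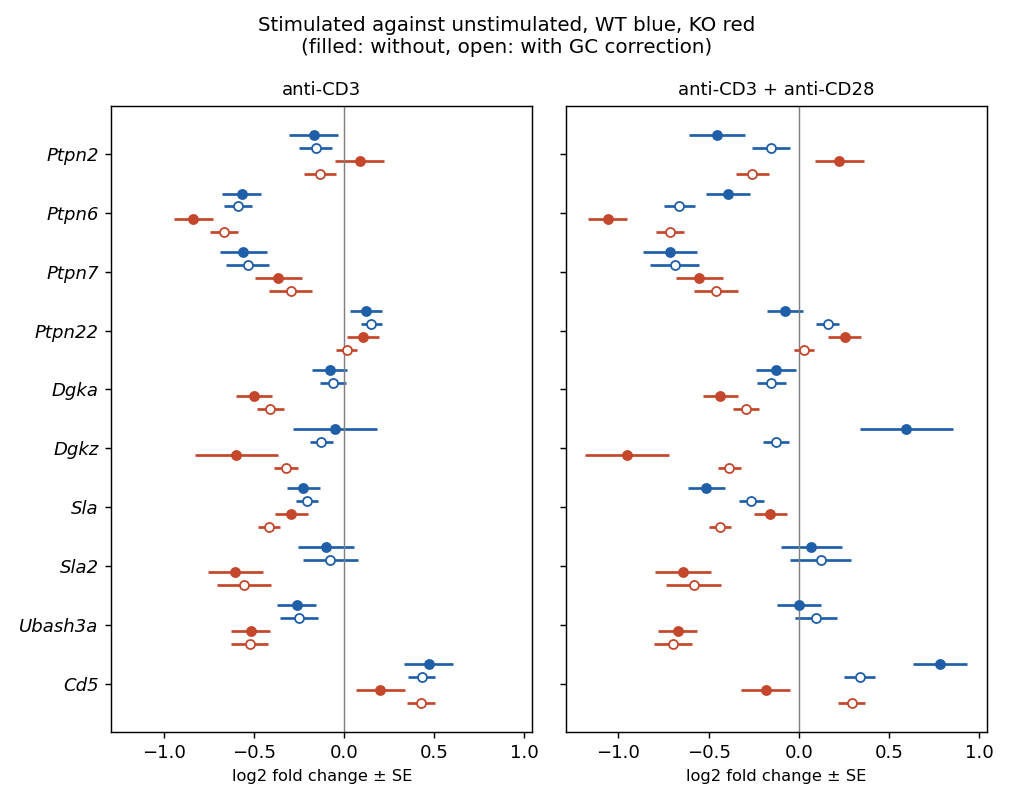
Stimulated against unstimulated cells for the 10 brake genes, anti-CD3 on the left and both antibodies on the right. The horizontal axis is the log2 fold change with its SE, blue for WT and red for KO, filled without and open with the GC correction. Ptpn6 and Ptpn7 lie below 0 in each case, and the open points of Cd5 lie above 0 in both genotypes.

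**Figure D5:**
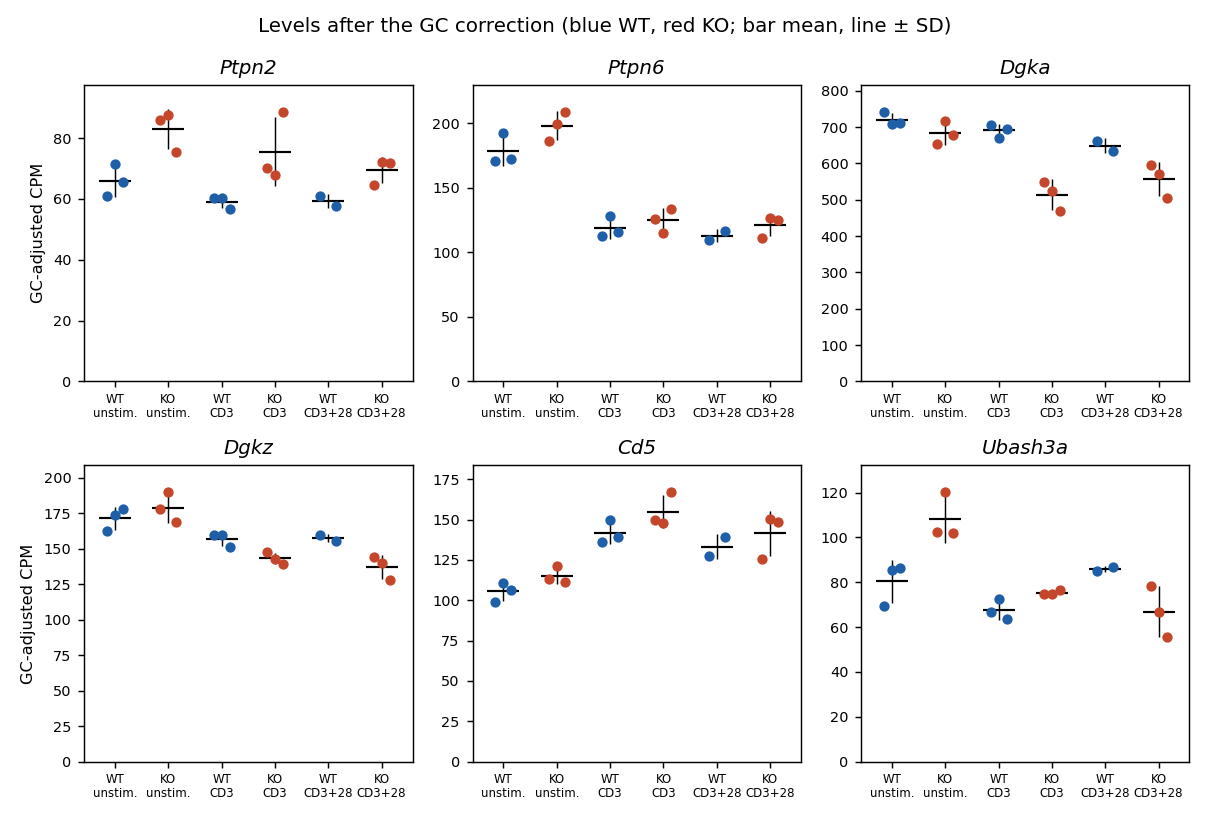
Levels of 6 brake genes after the GC correction. The vertical axis is GC-adjusted CPM from 0, points are libraries (blue WT, red KO), horizontal bars are means and vertical lines ± SD. The Dgkz values of KO cells given both antibodies, spread over 75.5 to 174 CPM before, lie at 128 to 144 after it, and Dgka remains lower in KO than in WT cells given anti-CD3.

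Adding anti-CD28 to anti-CD3 gave 0 calls among the 10 brake genes in WT and in KO cells with edgeR, where 0% of all genes were called. At an unadjusted p under 0.05 there were 3 of the 10 in WT and 1 in KO cells. The share of all genes under that threshold was not taken, so these counts have no share beside them. DESeq2 called 0 and 0 of the 10, and limma voom 8 and 6. Of the 16246 genes, DESeq2 called 517 in WT and 0 in KO cells, and limma voom 6058 and 5550. In WT cells the values ran from -0.29 ± 0.10 for Sla to 0.65 ± 0.26 for Dgkz, and in KO cells from -0.38 ± 0.14 for Cd5 to 0.15 ± 0.090 for Ptpn22. After the GC correction the values of Dgkz were 0.0036 ± 0.072 and -0.061 ± 0.065, and again 0 of the 10 were called.

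Whether the response differed between genotypes was tested as an interaction, the KO change minus the WT change. For anti-CD3, 0 of the 10 brake genes were called with edgeR, where 0.0554% of all genes were. At an unadjusted p under 0.05 there were 2 of the 10, again without a share of all genes beside them. DESeq2 and limma voom also called 0 of the 10, where they called 212 and 918 of the 16246 genes. The values ran from -0.55 ± 0.33 for Dgkz to 0.25 ± 0.19 for Ptpn2, and Dgka had -0.42 ± 0.14 (adjusted p = 0.203). The corrected value of Dgka was -0.35 ± 0.10 (adjusted p = 0.0728).

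For both antibodies, 7 of the 10 brake genes had an interaction, 2 higher (Ptpn2 and Sla) and 5 lower (Ptpn6, Dgkz, Sla2, Ubash3a and Cd5), where 18.3% and 19.2% of all genes were called. Once corrected for GC, 1 of the 10 was called, Ubash3a, where 5.99% and 9.11% of all genes were. The correction moved the median of all genes by -0.14 in this interaction. The largest uncorrected values, -1.55 ± 0.35 for Dgkz and -0.97 ± 0.20 for Cd5, were -0.26 ± 0.097 and -0.045 ± 0.11 with it (adjusted p = 0.073 and 0.841). Ptpn2 and Sla changed sign, from 0.68 ± 0.21 and 0.36 ± 0.14 to -0.11 ± 0.14 and -0.17 ± 0.091.

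Ubash3a had an interaction of -0.67 ± 0.16 without (adjusted p = 0.00549) and -0.79 ± 0.16 with the correction (adjusted p = 0.0042), and was called in each of the 27 alternatives. Its level in KO cells was above WT before stimulation (107 ± 11.6 against 82.2 ± 8.94 CPM) and below it with both antibodies (67.4 ± 9.27 against 82.3 ± 1.03 CPM). In WT cells the unstimulated and both-antibody ranges overlapped, and in KO cells they did not. Sla2 had a corrected value as large as the uncorrected one, -0.70 ± 0.23 against -0.71 ± 0.23 (adjusted p = 0.0508 and 0.0227). Without 1 library the call ended for Sla2 (either WT library given both antibodies, replicate 1 of unstimulated WT or replicate 2 of unstimulated KO cells, adjusted p 0.0555 to 0.0686), for Ptpn2 (WT both-antibody replicate 2 or 3, 0.0512 to 0.0689) and for Sla (any of 15 libraries, 0.0554 to 0.135). The interaction of anti-CD28 with genotype had 0 calls among the 10 with edgeR, where edgeR called 0.00616% of all genes. At an unadjusted p under 0.05 there were 6 of the 10, without a share of all genes beside them. DESeq2 called 4 and limma voom 7 of the 10, where they called 2255 and 7681 of the 16246 genes.

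A list of 27 other brakes of the receptor pathway that are not ligases was set beside the 10, of which 26 were tested. In unstimulated cells 9 were higher and 3 lower in KO cells, where 15.3% and 10.1% of all genes were, and the medians were 0.20 for the list and -0.011 for all genes. Dok2, an adaptor that recruits RasGAP, was higher by 0.90 ± 0.18 (adjusted p = 0.00686), Ptpn18 by 0.91 ± 0.19 (0.00841), Csk, the kinase that switches off Lck, by 0.91 ± 0.22 (0.0122), and Map4k1, which encodes HPK1, by 0.68 ± 0.17 (0.0123). The RasGAP genes Rasa1 and Rasa2 were among the lower ones (-0.48 ± 0.13 and -0.34 ± 0.12). In the GC-corrected fit 4 were higher and 0 lower (5.32% and 1.82% of all genes), among them Dok2 (0.32, adjusted p = 0.0239) and Ptpn18 (1.05, adjusted p = 0.0311) but not Csk (0.16) or Map4k1 (0.20). With anti-CD3 1 was higher (Ptpn11, 0.27 ± 0.074, adjusted p = 0.0184) and 1 lower (Pag1, -0.27 ± 0.081, adjusted p = 0.0334), where 10.5% and 4.8% of all genes were. The corrected counts with anti-CD3 were 4 higher, namely Ptpn11, Ptpn4, Dgkh and Ubash3b (0.24 to 0.29), and 1 lower, Rasa3 (-0.29), where 16% and 5.45% of all genes were. With both antibodies 2 were higher (Dgkh, another diacylglycerol kinase, 0.50 ± 0.13, and Ptpn4, 0.66 ± 0.17) and 3 lower (Dok2, -0.63 ± 0.20, Sit1, -0.49 ± 0.16, and Rasa3, -0.39 ± 0.13), where 9.84% and 6.3% of all genes were. The corrected counts were 1 higher (Ptpn4, 0.30) and 2 lower (Pag1, -0.27, and Rasa3, -0.28), where 9.43% and 7.69% were.

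The same 26 genes were also counted in the responses to stimulation. In WT cells 1 was higher and 8 lower with anti-CD3 (all genes 11.3% and 13.1%), and 2 and 8 with both antibodies (17.8% and 16.3%). In KO cells the counts were 4 and 10 with anti-CD3 (19.6% and 17.3%), and 4 and 13 with both antibodies (23% and 22.5%). The corrected counts were 2 and 11, 2 and 10, 4 and 13, and 4 and 14 in the same order. The transmembrane adaptor genes Sit1, Pag1 and Lax1 were lower in each case, with Sit1 at -1.89 ± 0.14 in WT and -2.19 ± 0.14 in KO cells given anti-CD3. Pag1 had -0.90 ± 0.081 and -1.05 ± 0.081, and Lax1 -0.86 ± 0.096 and -1.19 ± 0.096, in the same comparisons. Ptprj, the receptor phosphatase CD148, rose in WT (0.64 ± 0.20) and KO cells (1.29 ± 0.20) given anti-CD3, and Ubash3b, the relative of Ubash3a that encodes STS-1, rose in KO cells (0.44 ± 0.087, adjusted p = 0.000773).

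Of 20 receptor and proximal signalling genes on which the brakes act, 4 were higher and 2 lower in unstimulated KO cells, near the 15.3% and 10.1% of all genes, with a median of 0.030 against -0.011 over all genes. Zap70 (0.93 ± 0.18), Lck (0.53 ± 0.13), Vav1 (0.33 ± 0.096) and Lat (0.33 ± 0.11) were the higher ones, and with the GC correction Zap70 and Lck kept their calls at 0.22 and 0.23 among 3 higher and 0 lower. With anti-CD3 0 were higher and 5 lower, led by Cd3g (-0.37 ± 0.072, adjusted p = 0.00248) and Rasgrp1 (-0.30 ± 0.073, adjusted p = 0.0102), where 10.5% and 4.8% of all genes were. The corrected counts were 2 higher and 5 lower, of which Cd3g was not one. With both antibodies 0 were higher and 6 lower (all genes 9.84% and 6.3%, and 0 and 7 genes of the list with the correction), led by Plcg1 (-0.53 ± 0.13, adjusted p = 0.0168) and Cd247 (-0.38 ± 0.10, adjusted p = 0.0194). Stimulation lowered 11 (anti-CD3) and 8 (both antibodies) of the 20 in WT cells and 13 and 15 in KO cells, and raised 0 to 1. With the correction it lowered 13 and 13 in WT and 15 and 15 in KO cells, and again raised 0 to 1, beside shares of 14.2% to 23.3% lower over all genes. Cd8b1, Cd8a and Cd3g, which encode the CD8 chains and a CD3 chain, were lower in both genotypes given anti-CD3, at -0.82 ± 0.086, -0.81 ± 0.079 and -0.79 ± 0.073 in WT and -1.18 ± 0.086, -0.82 ± 0.079 and -0.97 ± 0.073 in KO cells.

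The genes whose levels over the 17 libraries were most like each brake gene were also taken, from 6848 genes of sufficient level, with Pearson r of log2 CPM as the measure. For Dgkz they were Flii (0.99) and Rgl2 (0.99), for Ptpn6 Itgb2 (0.98) and Il21r (0.98), and for Ubash3a Lgals3bp (0.97) and Sh3bgrl3 (0.97). For Dgka they were Chd6 and Ap3m2 (both 0.96), for Sla2 Orai2 and Nipal3 (both 0.97), and for Sla Phtf1 and Hadhb (both 0.96). For Ptpn2 they were Cwc15 and Thumpd3 (both 0.97), for Cd5 Adrm1 and Zfp598 (both 0.97), for Ptpn22 Smchd1 and Nek7 (both 0.94), and for Ptpn7 Fyn and Pkp4 (both 0.92). The libraries share the GC trend, so these values describe likeness over these libraries and no more. None of the nearest genes was another of the 10.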

How the data were processed

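RNA depleted of ribosomal RNA was sequenced from 17 libraries. The authors deposited a read count per gene and library, with STAR 2.5.2 and RSEM 1.3.0 named per the submitters' processing notes and gene models on GRCm38; of the strand setting and any rounding of RSEM estimates the sources used here say nothing. The counts were fitted with edgeR 4.0.16 in R 4.3.3: TMM scaling, genes kept by filterByExpr (16246), a quasi-likelihood test over all 17 libraries with 1 term per group, and Benjamini-Hochberg adjusted p at a threshold of 0.05. SE is the log2 fold change over the root of F. For the GC correction, each gene's log2 CPM less its mean over libraries was set against transcript GC content. A smooth curve (loess, span 0.3) was fitted to these deviations in each library. The curve, less its mean, entered the fit as an offset. In simulated data 93% of 200 genes changed about 2-fold were called in the KO against WT anti-CD3 comparison (15617 genes), as were 8 unchanged genes. The simulation gave every gene the same dispersion and no GC tilt. It therefore does not measure how often smaller changes would be called in these libraries. DESeq2 1.42.0, limma 3.58.1 (voom) and other settings were alternatives. Named genes are the 10 members, Cblb, and genes of smallest adjusted p from 2 lists. Ifng, Il2ra, Nr4a1, Cd69 and Rab5if were added. The members and lists were chosen with earlier results of these data known. A further result that this rule would name is not reported here.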

Additional observations from a re-analysis of the deposited data

Results flagged for a closer look

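For 7 of the 10 brake genes the change from unstimulated cells to cells given both antibodies differed between KO and WT cells, by edgeR's test of the interaction (the KO change minus the WT change, on the log2 scale). The values were -1.55 ± 0.35 for Dgkz (adjusted p = 0.00498), -0.97 ± 0.20 for Cd5 (0.00413), -0.71 ± 0.23 for Sla2 (0.0227), -0.67 ± 0.16 for Ubash3a (0.00549), -0.67 ± 0.16 for Ptpn6 (0.00567), 0.68 ± 0.21 for Ptpn2 (0.0164) and 0.36 ± 0.14 for Sla (0.0482). Across all 10 genes Pearson r between these values and transcript GC content was -0.91, and 0.036 with the GC correction (n = 10 genes, which share their libraries). The correction is fitted on that same GC content, so a smaller r after it is largely built in. With the correction Ubash3a was called (-0.79 ± 0.16, adjusted p = 0.0042) and the other 6 were not. Over all genes, 18.3% were called higher and 19.2% lower without the correction, and 5.99% and 9.11% with it.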

How the results depend on the processing

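Counts of brake genes called are given for the 10 genes, edgeR first. Calls among all genes moved with many of the same settings and are given further below. They are not given for fits that leave libraries out, so those counts have no share beside them. Unstimulated KO against WT: 4, and 2 with the GC correction or with the replicate block and GC correction. Anti-CD3: 2, and 1 with DESeq2's size factors (RLE), DESeq2, a 1 CPM filter or the replicate block, 6 without the 2 libraries of extreme tilt, and 7 with voom or the compared groups alone. Both antibodies: 2, and 4 with DESeq2, 9 with voom, 1 without the 2 libraries and 0 with the groups alone. Among all genes, edgeR called 2621 there, DESeq2 3589, voom 9370 and the groups alone 0. WT anti-CD3 response: 3, and 5 with voom, the GC correction, the block with it, without the 2 libraries and with the groups alone. Anti-CD28 added: 0, and in WT cells 8 with voom, 3 without the 2 libraries and 7 with the groups alone, and in KO cells 6 with voom. KO response to both antibodies: 7, and 3 with the groups alone. Interactions: anti-CD3 0, and 1 with the block and GC correction (Dgka, -0.35, adjusted p = 0.0468); both antibodies 7, and 1 with the GC correction, 2 with the block and it, and 4 without the 2 libraries; anti-CD28 0, and 4 with DESeq2, 7 with voom and 1 without the 2 libraries.

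Leaving out 1 library gave 0 to 4 (unstimulated), 0 to 4 (anti-CD3) and 0 to 9 (both antibodies) for KO against WT, 2 to 5 and 3 to 6 for the WT responses to anti-CD3 and both antibodies, 4 to 7 and 6 to 8 for the KO responses, 0 to 2 (WT) and 0 to 0 (KO) for added anti-CD28, and 0 to 0, 4 to 9 and 0 to 7 for the interactions with anti-CD3, both antibodies and anti-CD28. Where a group was left with 1 library, it was assumed to vary like the others.

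Among values called without or with the GC correction, the sign turned with it, and with the block beside it, for Ptpn2 in unstimulated KO against WT (0.34 and 0.34) and in KO cells given both antibodies (-0.26 and -0.26), for Cd5 in the latter (0.29 and 0.29), and in the both-antibody interaction for Ptpn2 (-0.11 and -0.082) and Sla (-0.17 and -0.16). Values called in neither fit turned as well, such as Dgkz in KO against WT with anti-CD3 (0.24 to -0.13). The labels do not say that same-numbered libraries share an animal or day: 15 of 40 pairs had correlated deviations above 0.1, and 9 of 17 libraries matched their own number best. Among all genes, calls went from 4134 to 1159 with the GC correction in unstimulated KO against WT, and from 6089 to 2453 in the both-antibody interaction. They went from 2492 to 5742 with voom and 5262 with the groups alone (anti-CD3), and from 2621 to 9370 and 0 (both antibodies). The WT response to both antibodies went from 5538 to 8425 with voom, the KO one from 7379 to 3990 with the groups alone. For added anti-CD28 0 became 6058 (WT) and 5550 (KO) with voom, and in WT cells 517 with DESeq2 and 4780 with the groups alone. The anti-CD3 interaction went from 9 to 212 (DESeq2), 918 (voom), 394 (GC correction), 475 (groups alone) and 63 (no filter), and that of anti-CD28 from 1 to 2255, 7681, 42 (GC correction) and 326 (no filter). The share of calls that were higher moved from 68.7% to 57.2% with RLE and 56% with DESeq2 (anti-CD3), and from 60.3% to 74.5% with the GC correction (unstimulated). The cause was not tested. The lowest count of the 10 genes in a library was 698, and an effect of depth was not tested.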
